A study of Homo sapiens with 18 samples.

Results

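The regions described here are broad stretches of MYC-bound chromatin, 1000 bp or wider, in MCF10A.PM cells. They were found by merging the peaks of 9 MYC chromatin immunoprecipitation and sequencing (ChIP-seq) lists on chromosomes 1 to 22 wherever peaks overlapped by at least 1 bp. A merged region was kept where it was at least 1000 bp wide and held a peak in all 3 control lists. Of 42343 merged regions, 13997 had a peak in all 3 control lists, and 1764 of those (12.6%) were 1000 bp or wider. The other 12233 were narrower, with a median width of 487 bp. The regions were chosen by merged width and control calls, so the widths, the control calls and the control signal are given as descriptions with no test.

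MCF10A is an immortalised, non-tumour breast epithelial line. MCF10A.PM cells carry MYC from pBABE-hygro-MYC and a mutant PI3K from pMN-IRES-GFP-PI3KH1047R, and every group shares both constructs. Hairpins against G9a (shG9a_1 and shG9a_4 here, numbered as in the plasmid labels) or a scrambled hairpin (shSCR) were expressed from pLKO-tetON plasmids after 72 h of 2 µg/mL doxycycline, which the controls received too. Each of the 3 groups has 3 MYC libraries, called biological replicates in the series design, made with the homemade antibody N262 from 10000000 cells each and planned at 25000000 single reads of 50 bp. The antibody cannot tell ectopic from endogenous MYC, and G9a was not measured in these files, so its knockdown could not be checked here. The 9 matching inputs were not analysed here.

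MYC is a transcription factor of the basic helix-loop-helix leucine zipper class that binds DNA as a dimer with MAX. It occupies many active promoters, and at the high levels reached in tumours or under an ectopic promoter it also spreads to weaker promoter sites and enhancers. G9a (EHMT2) methylates histone H3 in euchromatin and is best known as a repressor of transcription. In a MYC ChIP-seq list a broad region can be 1 long enriched stretch or several neighbouring summits that the peak caller joined.

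The widths ranged from 1000 to 3999 bp, with a median of 1212 bp and quartiles of 1086 and 1410 bp. In all, 333 regions reached 1500 bp and 62 reached 2000 bp. Together they covered 2.29 Mb, which was 26.3% of the sequence under all regions called in the 3 shSCR lists. A single peak of 1000 bp or more was present in some list at 1139 regions (64.6%), and the other 625 passed 1000 bp only because shorter peaks of different lists overlapped. Long single peaks came mostly from 1 control library. The shSCR replicate 2 list had such a peak in 975 of the regions, replicate 1 in 378 and replicate 3 in 296, and at 599 regions replicate 2 alone among the controls had it. When shSCR replicate 2 was left out and the lists were merged again, 1066 regions met the rule. The shG9a lists also entered the merging. With widths taken from the shSCR lists alone, 1528 regions met the rule.

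At the width limit, the 3 regions of exactly 1000 bp lay on chromosome 17 (40687909 to 40688908 and 43661784 to 43662783) and chromosome 21 (46387612 to 46388611), with mean shSCR folds of 27.9, 7.58 and 39.1. The 3 regions of 999 bp that were left out lay on chromosomes 10, 11 and 12, with mean shSCR folds of 15.97, 6.95 and 8.47. Here and throughout, coordinates are in hg19, counted from 1, and fold is the authors' enrichment of the region's best peak over its local background.

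In the shSCR lists the broad regions were among the stronger sites. Their mean shSCR fold had a median of 13.3 (range 2.24 to 65.0), against 8.41 for the narrower regions. Their rank within the shSCR lists, as a percentile, had a median of 87.3, against 63.9 for the narrower regions. At 400 of the broad regions the mean fold reached 20, and at 2 it was under 5.

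The 2 regions of low fold were on chromosome 1 (121484321 to 121485499, mean shSCR fold 2.92) and chromosome 6 (58776468 to 58779310, mean shSCR fold 2.24). They were not low in rank: their percentiles in the shSCR lists were 93.8 and 74.8, above the narrower regions' median of 63.9. Both had very high pileup, meaning the number of reads stacked over the summit, and a high local background. On chromosome 6 the pileup was 205 and 142 reads in shG9a_1 replicates 2 and 3 and 263, 184 and 246 in shG9a_4 replicates 1 to 3, against 204, 171 and 223 in shSCR replicates 1 to 3. The local background there was 87.2 to 187 reads in the shG9a libraries and 78.5 to 104 in the shSCR libraries. At the median broad region it was 0.612 to 1.49 reads in the 5 shG9a libraries and 0.639 to 0.997 in the shSCR libraries. Pileup at the chromosome 6 region was thus high in each of the 8 libraries, with no separation of the groups. What part of it was MYC binding was not tested.

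Broad regions occurred on all 22 chromosomes. Their share of the regions called in the 3 shSCR lists ranged from 8.99% on chromosome 20 (95% Wilson interval 6.72 to 11.9%) to 14.7% on chromosomes 4 and 13, and the median chromosome had 12.7%. Chromosome 1 held the most, 199. Set against the number of protein-coding genes that RefSeq lists per chromosome (GRCh38.p14), chromosome 19 had 5.79 broad regions per 100 genes and chromosome 18 had 13.3, with a median of 9.47. Broad regions had no more neighbours than narrower ones: 579 of them (32.8%, 95% Wilson interval 30.7 to 35.0%) had another region called in the 3 shSCR lists within 10 kb, against 37.6% (36.7 to 38.4%) of the narrower regions. Another broad region lay within 10 kb of 117 of them and within 1 kb of 36. Genes, promoters and sequence motifs at the regions were not analysed here, since no annotation of hg19 was used.

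Pooled over libraries, most broad regions held more than 1 summit position. Within single lists, 30.2 to 54.3% of the called broad regions held more than 1 peak, leaving out shG9a_1 replicate 1. Peak summits of the 8 longer lists were linked where they lay within 100 bp of each other, and a position supported by at least 2 libraries was counted. The 1764 regions held 3789 such positions: 372 regions had 1, 884 had 2, 404 had 3, 85 had 4 and 19 had 5 or more. Of these positions, 3181 (84.0%) had summits from both the shG9a and the shSCR libraries. Positions seen only in shG9a libraries numbered 432 and those seen only in shSCR libraries 176, with 5 shG9a libraries and 3 shSCR libraries able to add one.

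Neighbouring summits of 1 library lay within 1 kb in most cases, which the width of the regions (median 1212 bp) largely sets. The median spacing within broad regions was 513 and 534 bp in shG9a_1 replicates 2 and 3 and 507, 554 and 539 bp in shG9a_4 replicates 1 to 3, against 552, 627 and 565 bp in shSCR replicates 1 to 3. The gap between neighbouring peaks had a median of 162.5 to 186 bp in these shG9a libraries and 106.5 to 143 bp in the shSCR libraries. The gaps were longer in each of the 5 shG9a libraries than in any shSCR library, while the spacings overlapped. Long shSCR peaks helped to choose the regions, which by itself leaves shorter gaps in the shSCR lists. The strongest summit lay somewhat more often towards the centre of a region. Its median position was 47.5 to 48.9% of the way along the region in the 5 shG9a libraries and 48.4 to 50.1% in the shSCR libraries. It fell in the central of 3 equal parts of the region at 40.8 to 42.6% of called regions in those shG9a libraries and at 41.2 to 43.3% in the shSCR libraries.

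Broad regions were called in most shG9a libraries. A peak was present in 90.0% and 92.6% of them in shG9a_1 replicates 2 and 3 and in 88.5%, 97.5% and 93.8% in shG9a_4 replicates 1 to 3. The first shG9a_1 library called 54 of them, 3.06%, and 0.433% of the narrower regions. That library's list held 111 peaks on chromosomes 1 to 22, against 11044 to 17206 in the other shG9a libraries and 19781 to 34051 in the shSCR libraries. By the authors' calls, 1384 of the 1764 regions (78.5%, 95% Wilson interval 76.5 to 80.3%) had a peak in 5 or 6 of the 6 shG9a libraries, where 37.1% of all regions called in the 3 shSCR lists were. Only 7 (0.397%) were called in no shG9a library, where 9.42% of all such regions were. Of the rest, 18 regions were called in 1 shG9a library, 56 in 2, 89 in 3 and 210 in 4. These intervals cover counting error only, and regions are not replicates of a condition.

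**Figure D1:**
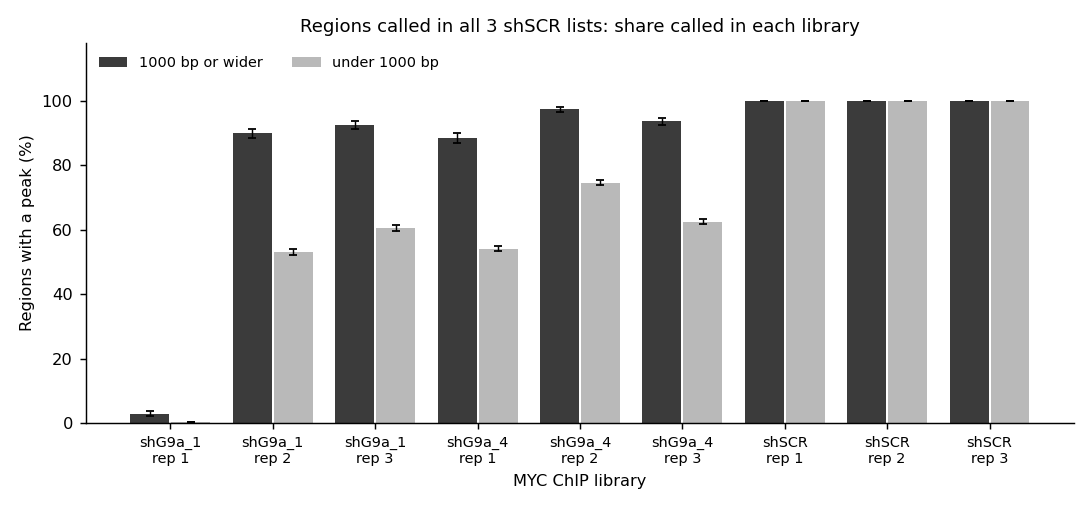
Share of regions called in all 3 shSCR lists that had a peak in each MYC ChIP library (vertical axis, percent, starting at 0; error bars, 95% Wilson intervals), for regions of 1000 bp or more (dark) and narrower regions (light). The shG9a libraries apart from shG9a_1 replicate 1 called 88.5 to 97.5% of the broad regions and 53.2 to 74.5% of the narrower ones; the shSCR bars are 100% by the rule.

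Both hairpins left most broad regions with a peak. In both shG9a_1 libraries with long lists, 85.9% of the broad regions were called, where 47.7% of all regions called in the 3 shSCR lists were, and 3.23% were called in neither, where 25.2% of all were. All 3 shG9a_4 libraries called 84.6% (46.9% of all), and 0.907% were called in none of the 3 (13.4% of all). At 54 broad regions all 9 libraries had a peak. These were all the broad regions that shG9a_1 replicate 1 called, 3.06%, where it called 0.433% of the narrower regions.

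The share of calls followed the strength of the regions in the shSCR lists, meaning the rank of their best peak. At like rank the broad regions were called more often than the narrower ones. A call was a peak anywhere in a region, and broad regions were wider (median 1212 against 487 bp), so they had more room for one. What part width had in these shares was not tested. The regions called in the 3 shSCR lists were divided into deciles by their mean rank in those lists. In the strongest decile, 533 of 535 broad regions (99.6%) and 99.1% of narrower regions had a peak in 5 or 6 shG9a libraries. In decile 6 these shares were 47.97% of 148 broad regions (95% Wilson interval 40.1 to 56.0%) and 26.5% of 1251 narrower regions (24.2 to 29.1%). The intervals did not overlap in deciles 3 to 9. Since shG9a peaks could widen a region, the shares were computed again with widths from the shSCR lists alone, an alternative chosen after the data were seen. In decile 6 they were then 45.5% of 123 broad regions (37.0 to 54.3%) and 26.5% of 1285 narrower regions (24.1 to 28.9%), and the intervals again did not overlap in deciles 3 to 9. In the weakest decile 0 of 16 broad regions were so called, which allows up to 19.4% by the same interval, against 0.795% of narrower regions. Of the broad regions, 30.3% lay in the strongest decile and 0.907% in the weakest.

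**Figure D2:**
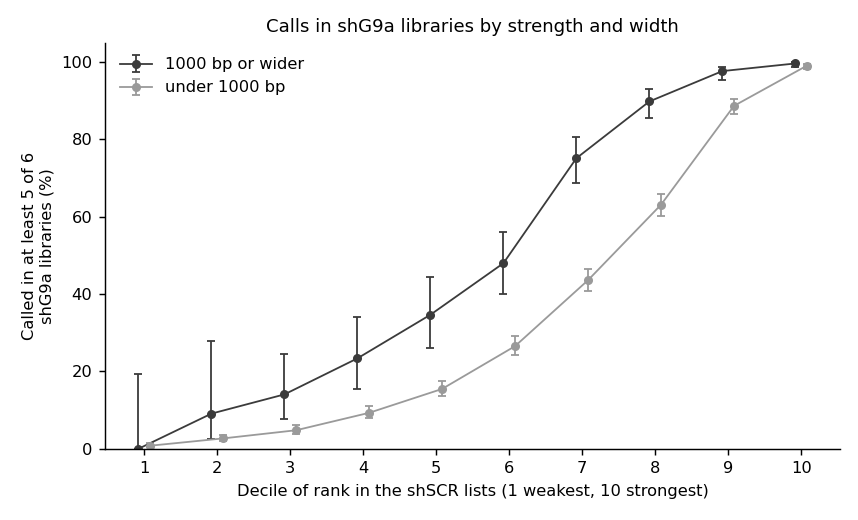
Share of regions with a peak in 5 or 6 shG9a libraries (vertical axis, percent) by decile of rank in the shSCR lists (horizontal axis, weakest to strongest), for regions of 1000 bp or more (dark) and narrower regions (grey), with 95% Wilson intervals. Both lines climb with rank and meet at 99.6 and 99.1% in decile 10, and the broad regions lie above the narrower ones in deciles 2 to 9.

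When the 8 longer lists (5 shG9a and 3 shSCR) were merged with no condition on which library called a region, 1787 regions reached 1000 bp. Of these, 23 were not among the 1764, and each of the 1787 had a peak in at least 1 shSCR list. The broad set was thus nearly fixed by the shSCR lists, so calls in it are given with no test. Peaks were found in 89.3% and 91.9% of the 1787 regions in the shG9a_1 libraries and in 87.8%, 97.5% and 93.5% in the shG9a_4 libraries, against 99.8%, 100% and 98.9% in the shSCR libraries. The shG9a mean was 92.0 ± 3.79% (SD, n = 5) and the shSCR mean 99.6 ± 0.592% (SD, n = 3), a difference of -7.57 percentage points. With every list limited to its 11044 strongest peaks, the difference was -2.45 points. Without shSCR replicate 2, the library with the most peaks of 1000 bp or more, it was -3.87 points, and among libraries of like recovered depth it was -4.82 points.

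Height was then compared at the 1384 broad regions called in all 8 libraries. These regions also reached 1000 bp mostly through shSCR peaks. That choice favours height in the shSCR libraries, so the p-values below cannot decide whether height differed between the groups. Height is the recovered pileup at the best summit of a region divided by the lowest background of that library. The median height of the broad regions was 37.8-fold and 39.4-fold over background in the shG9a_1 libraries and 25.1-fold, 46.2-fold and 25.2-fold in the shG9a_4 libraries, against 60.3-fold, 73.7-fold and 58.9-fold in the shSCR libraries. Every shG9a library was lower than every shSCR library. The test was a two-sided exact permutation over all 56 ways to assign the libraries, whose smallest possible p is 0.0357, adjusted by Benjamini-Hochberg over 6 measures, so that no adjusted p can fall below 0.05 unless 5 of the 6 reach that limit. On the log2 scale the mean of these medians was 5.08 ± 0.400 (SD, n = 5) with shG9a and 6.00 ± 0.178 (SD, n = 3) with shSCR, a difference of -0.92, or a ratio of 0.527 (exact permutation p = 0.0357, the smallest possible; adjusted p = 0.0714). It did not pass 0.05 after adjustment. The 6 measures include calls and covered share, whose p-values the choice of regions largely set. Those equalled the p of height, so the adjusted p of height would be larger without them. The ratio to the shSCR libraries was 0.603 for shG9a_1 (exact permutation p = 0.2, the smallest that 2 libraries against 3 allow) and 0.482 for shG9a_4 (exact permutation p = 0.1, the smallest for 3 against 3).

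The 5 shG9a libraries differed in recovered depth, from 0.840 to 2.65 relative to the shSCR libraries' 0.925 to 1.04. Both shG9a libraries with the lowest heights, shG9a_4 replicates 1 and 3, had the largest values, 1.90 and 2.65. Among libraries of like depth (shG9a_1 replicate 3, shG9a_4 replicate 2 and the 3 shSCR libraries) the log2 difference was -0.60 at 1544 regions, with an exact permutation p of 0.2, the smallest possible there. What part depth had in the full difference was not tested.

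The difference in height was of like size at narrower regions. At the 3807 narrower regions called in the same 8 libraries the ratio of shG9a to shSCR height was 0.527 as well. The broad regions stood above the narrower ones by 0.23 ± 0.015 log2 units in the shG9a libraries (SD, n = 5) and by 0.23 ± 0.054 in the shSCR libraries (SD, n = 3). The difference of these differences was -0.000538 log2 units (exact permutation p = 0.929). Both sets were limited to regions called in all 8 libraries, 1384 of 1764 broad regions but 3807 of 12233 narrower ones. The width that chose the broad set came mostly from shSCR peaks. This p therefore cannot decide whether broad and narrower regions differed alike.

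**Figure D3:**
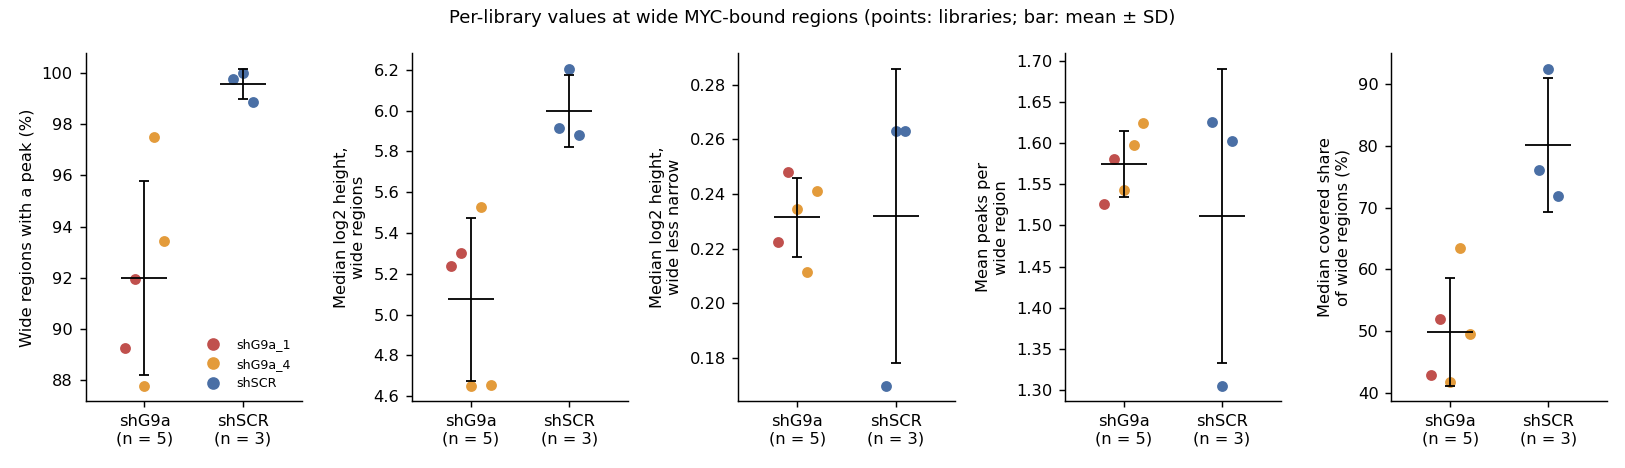
Values per MYC ChIP library (points) with mean and SD (bars) for 5 shG9a libraries, to the left, and 3 shSCR libraries. The panels show, at broad regions, the percent with a peak, the median log2 height, the median log2 height of broad less that of narrower regions, the mean number of peaks per region and the median percent of the region covered by peaks; vertical axes do not start at 0. The groups are apart in the first, second and last panels (92.0 and 99.6%, 5.08 and 6.00, 49.9 and 80.1%) and overlap in the other two.

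Region by region, the mean log2 height was lower with shG9a at all 1384 broad regions, with a median difference of -0.88 and a range from -1.24 to -0.54 for the central 90%. Over all 5191 regions called in the 8 libraries it was lower with shG9a at 5181 (99.8%), and the median difference was -0.89. All 5 shG9a heights lay below all 3 shSCR heights at 872 broad regions (63.0%), where 56.5% of all 5191 regions did so. At 0 broad regions, and at 0% of all, did all 5 lie above. When each library was centred on its own median over the 5191 regions, which removes a shift of -0.88, 34 broad regions (2.46%) were still lower without overlap, where 2.37% of all were, and 40 (2.89%) were higher without overlap, where 3.01% of all were. Both shares were close to those of all regions, so no broad region is singled out by them.

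The broad region with the highest mean shSCR fold, on chromosome 2 (70312984 to 70315163, 2180 bp), was called in all 9 libraries. Its height was 44.3-fold over background in shG9a_1 replicate 1, 194-fold and 197-fold in shG9a_1 replicates 2 and 3, and 137-fold, 273-fold and 114-fold in shG9a_4 replicates 1 to 3, against 268-fold, 350.2-fold and 289.5-fold in shSCR replicates 1 to 3. The shG9a_4 replicate 2 library was above the lowest shSCR library, so the groups overlapped. Its mean shSCR fold was 65.0 ± 17.7 (SD, n = 3), and the ratio of shG9a to shSCR height was 0.581, leaving out shG9a_1 replicate 1. The other 4 of the 5 regions with the highest shSCR fold lay on chromosomes 5 (154134002 to 154135584 and 170814338 to 170815998), 22 (21982887 to 21984567) and 13 (91999216 to 92002071). Over these 5 regions the ratio ran from 0.482 to 0.588.

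The largest difference in height was on chromosome 5 (78531512 to 78532700, 1189 bp). Its height was 24.3-fold and 20.7-fold in shG9a_1 replicates 2 and 3 and 16.3-fold, 37.8-fold and 9.70-fold in shG9a_4 replicates 1 to 3, against 55.8-fold, 77.8-fold and 63.8-fold in shSCR replicates 1 to 3. All 5 shG9a libraries lay below all 3 shSCR libraries, at a ratio of 0.303, while every one of the 5 still had a peak. The next 4 by size, on chromosomes 5, 6, 2 and 1, had ratios up to 0.362.

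At the opposite end, a region on chromosome 9 (19379626 to 19380796, 1171 bp) had nearly the shSCR height. It stood at 48.6-fold and 89.2-fold in shG9a_1 replicates 2 and 3 and at 44.0-fold, 81.8-fold and 49.5-fold in shG9a_4 replicates 1 to 3, against 51.4-fold, 77.8-fold and 61.3-fold in shSCR replicates 1 to 3. The groups overlapped fully and the ratio was 0.957. The next 4, on chromosomes 5, 18, 16 and 12, had ratios from 0.856 to 0.911. These regions were ranked by the difference itself, so neither extreme carries a test.

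The 7 regions called in no shG9a library were near the width limit and low in rank for broad regions. They were 1018 to 1167 bp wide, and their mean shSCR fold was 5.74 to 9.25. Their percentile ranks were 31.0 to 64.7, all below the lower quartile of broad regions, 74.2. Pileups in the shSCR libraries were 6 to 21 reads, and at 5 of the 7 the shSCR replicate 2 list had a single peak of 1000 bp or more. Adjacent regions on chromosome 6 (135501597 to 135502724 and 135502946 to 135504112), 221 bp apart, were both among them. The others lay on chromosomes 12 (120426418 to 120427464), 9 (77702620 to 77703640 and 79792157 to 79793310), 1 (68298342 to 68299359) and 11 (65194444 to 65195610). The region on chromosome 12 had pileups of 13, 14 and 12 reads in shSCR replicates 1 to 3 and no peak in any of the 6 shG9a lists. A list without a peak does not give a height of 0, since heights below the caller's threshold are not listed. With shSCR replicate 2 left out and the lists merged again the count of such regions was 1, and without shG9a_4 replicate 2 it was 14.

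The median share of a broad region under peaks was lower in the shG9a libraries. At the 1384 regions the median covered share was 42.8% and 51.9% in the shG9a_1 libraries and 41.7%, 63.4% and 49.5% in the shG9a_4 libraries, against 76.1%, 92.5% and 71.8% in the shSCR libraries. The means were 49.9 ± 8.73% (SD, n = 5) with shG9a and 80.1 ± 10.9% (SD, n = 3) with shSCR, and no shG9a library reached the lowest shSCR library. The difference was -30.2 percentage points. The width that this share is measured against chose the regions and came mostly from the shSCR lists, with a shSCR peak of 1000 bp or more at 1116 of the 1764, so the difference is given with no test.

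Splitting, meaning more than 1 separate peak per region in a list, overlapped between the groups. Of the called broad regions, 41.3% and 47.1% were split in shG9a_1 replicates 2 and 3 and 43.9%, 49.5% and 49.6% in shG9a_4 replicates 1 to 3, against 54.3%, 30.2% and 51.1% in shSCR replicates 1 to 3. The low value was that of shSCR replicate 2, the longest list, in which 1231 of 1764 regions held 1 peak. Over the 1384 regions the mean number of peaks per region was 1.57 ± 0.0402 with shG9a (SD, n = 5) and 1.51 ± 0.179 with shSCR (SD, n = 3), a difference of 0.0631 (exact permutation p = 0.714; adjusted p = 0.857). Leaving out shSCR replicate 1 gave 0.173 and leaving out replicate 3 gave 0.143. With shSCR replicate 2 removed, the difference was 0.100 at an exact permutation p of 0.0952, the smallest possible. The answer changed with list length. With each list limited to its 11044 strongest peaks, shG9a libraries had 0.287 more peaks per region (exact permutation p = 0.0357, the smallest possible). Long single shSCR peaks, each counted as 1, brought many regions past 1000 bp, which lowers the shSCR count in advance. These p-values therefore cannot decide whether splitting differed between the groups.

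**Figure D4:**
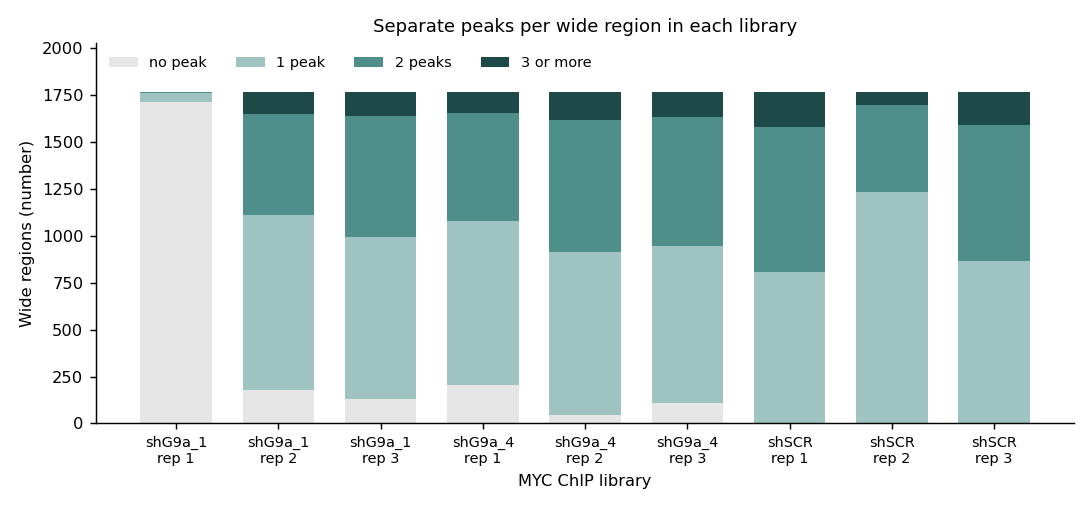
Number of broad regions (vertical axis, starting at 0) with no peak, 1 peak, 2 peaks or 3 and more peaks in each MYC ChIP library. In shG9a_1 replicate 1 only 54 regions had a peak; shSCR replicate 2 had 1231 regions with 1 peak, more than the 806 and 863 of the other shSCR libraries and the 834 to 932 of the other shG9a libraries.

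Regions split in each shSCR list were split more often in the shG9a libraries than regions with 1 peak in each. Of 427 broad regions with 1 peak in each shSCR list, 133 and 124 were split in shG9a_1 replicates 2 and 3 and 144, 111 and 156 in shG9a_4 replicates 1 to 3, at most 36.5% of them. Of 249 regions split in each shSCR list, 102 and 140 were split in the shG9a_1 libraries and 95, 164 and 142 in the shG9a_4 libraries, at least 38.2% of them. In each of the 5 libraries the second share was the higher one. A wider region has more room for separate peaks, and what part width or strength had in these shares was not tested.

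The region with the most added peaks lay on chromosome 10 (74090710 to 74092641, 1932 bp). It held 2 and 3 peaks in shG9a_1 replicates 2 and 3 and 3, 3 and 3 in shG9a_4 replicates 1 to 3, against 1, 1 and 2 in shSCR replicates 1 to 3. Peaks covered 744 to 944 bp of it in those shG9a libraries and 1018 to 1795 bp in the shSCR libraries, so several shorter peaks stood where the controls had longer ones. Its height ratio was 0.605. The widest region, also on chromosome 10 (74033253 to 74037251, 3999 bp), held 2, 7, 3, 4 and 4 peaks in the same shG9a libraries and 4, 2 and 5 in the shSCR libraries, with no order between the groups. Its height was 18.9-fold and 22.8-fold in shG9a_1 replicates 2 and 3 and 16.3-fold, 39.9-fold and 14.5-fold in shG9a_4 replicates 1 to 3, against 51.4-fold, 63.5-fold and 39.3-fold in shSCR replicates 1 to 3, a ratio of 0.417. The other 4 of the 5 widest lay on chromosomes 16 (4321044 to 4324206), 6 (32935947 to 32938911 and the high-background region above) and 13, and were 2843 to 3163 bp wide.

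**Figure D5:**
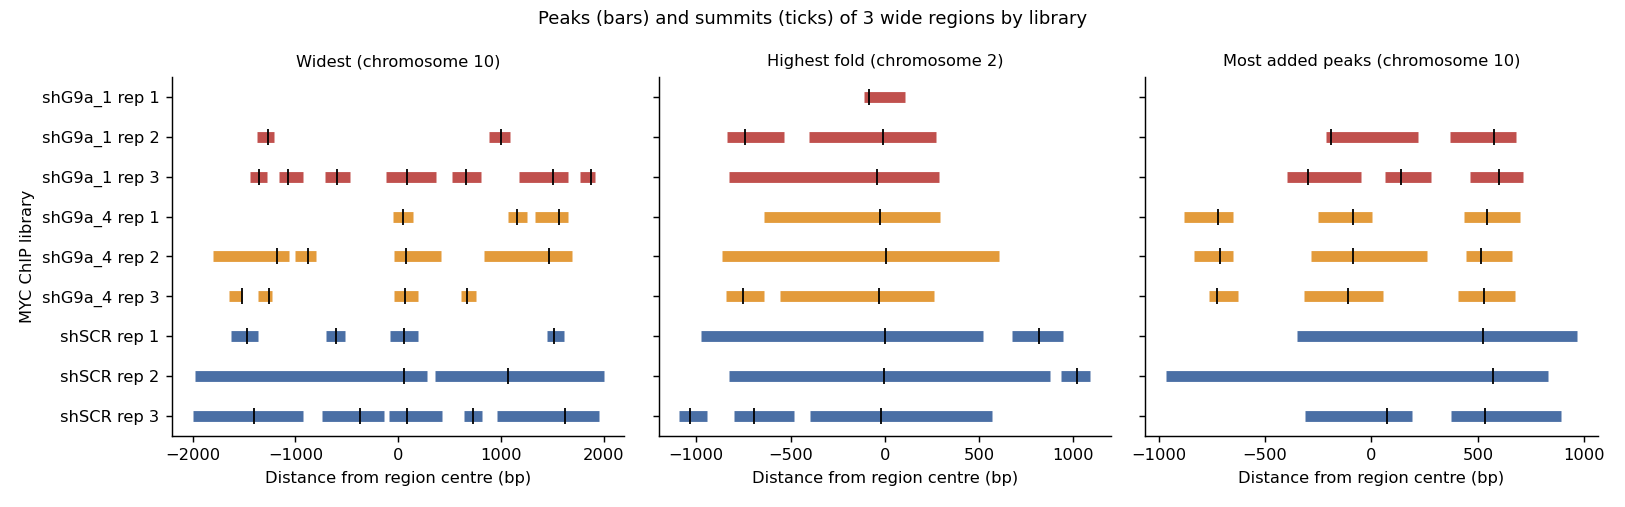
Peaks (bars) and summits (ticks) in each MYC ChIP library, shG9a libraries above shSCR libraries, at 3 broad regions; the horizontal axis is the distance in bp from the centre of the merged region. At the widest region peak number varies from 2 to 7 among shG9a libraries with a call and from 2 to 5 among shSCR libraries; at the region of highest fold all 9 libraries share a summit near the centre; at the region with the most added peaks 4 of the shG9a libraries have 3 peaks and shSCR replicates 1 and 2 have 1.

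Median distances between the strongest summits overlapped between and within the groups. At 418 of the 1384 broad regions (30.2%) the best summits of all 8 libraries fell within 100 bp, at 517 those of the 5 shG9a libraries did, and at 843 those of the 3 shSCR libraries did, a smaller set of summits. The median distance between the best summits of 2 libraries averaged 43.7 bp over the 15 pairs of an shG9a with an shSCR library (38 to 49.5 bp), 48.5 bp over the 10 shG9a pairs and 39.3 bp over the 3 shSCR pairs. The distance between the groups less that within them was -2.68 bp (exact permutation p = 0.143; adjusted p = 0.214). It was 3.83 bp for shG9a_1 and -0.53 bp for shG9a_4 taken alone against shSCR. With 1 library left out it ran from -4.20 bp (without shSCR replicate 1) to -0.889 bp (without shG9a_4 replicate 1). Of 451 regions where each group had its best summits within 100 bp, 0 had the groups' summits more than 200 bp apart.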

How the data were processed

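The data are 9 peak lists, 1 per MYC ChIP library, with replicates not pooled. Tools in the submitters' processing notes are MACS2 2.1.0, Picard 2.7.1, STAR 2.5.2a and SAMtools 1.3, with genome builds hg19 and GRCh37, and no step or setting is given for any of them. The deposited score is a whole number derived from the q-value, and it was not used. The authors' fold divides the summit's pileup plus 1 by its local background plus 1. Deposited −log10 q-values and −log10 p-values refer to that same base. The authors' summit offset, in bp from the peak's start, gave summit positions.

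Read depth is unknown from the files. Pileup and local background were recovered from fold and p by a Poisson tail, within 0.001 on the −log10 p scale at 100% of peaks, and a second pair of values was possible at 0.281%. The lowest background shared by at least 1% of a library's peaks gave its depth scale. Peaks on chromosomes 1 to 22 (148456 of 151062) were merged with Python 3.11.15, NumPy 2.4.6, pandas 2.3.3 and SciPy 1.17.1. Recovery, merging and the permutation test were tested on simulated data and returned the known answers.

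Groups came from sample titles. The first shG9a_1 library, whose list holds 113 peaks, was left out of the tests but appears in the counts of calls. Exact permutation tests ran over libraries, with Benjamini-Hochberg adjustment over 6 measures. Calls per library and covered share, 2 of the 6, are given with no test, since the choice of regions largely sets them. The adjustment still counted them, which made the adjusted p of height smaller. Height, broad less narrow height and peaks per region were tested at regions chosen in the same way. Their p-values therefore cannot decide a group difference. The members, measures and lists were chosen with earlier results of these data known. The regions named are the 5 widest, the 5 of highest mean shSCR fold, those called in no shG9a library, the 5 largest and 5 smallest height differences, the 5 with the most added peaks, and the 3 nearest each side of the width limit, of which the text gives the leading ones; the 2 regions of fold under 5 were chosen after their values were seen. Alternatives changed the q threshold, overlap, width, libraries, list length, chromosome X, background and replicate block. Without an hg19 annotation, genes and sequences were not analysed here.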

Additional observations from a re-analysis of the deposited data

Results flagged for a closer look

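The first shG9a_1 library stood far from the other 5 shG9a libraries in all 3 measures in which it was examined. In 5 other measures, which leave it out, no shG9a library did. Chance alone would mark about 1 in 20 such groups. It called 3.06% of the broad regions, against 88.5 to 97.5% in the other shG9a libraries and 100% in the shSCR libraries. Its called regions held 1.06 peaks on average, against 1.49 to 1.59 in the other shG9a libraries and 1.34 to 1.66 in the shSCR libraries. Its median summit spacing was 234 bp, from 3 gaps only, against 507 to 554 bp in the other shG9a libraries and 552 to 627 bp in the shSCR libraries.

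Peaks on the mitochondrial sequence, which the regions leave out, covered more bases in 3 shG9a libraries than in any shSCR library. They covered 13640 bp in shG9a_1 replicate 2, where 3 peaks were 1000 bp or wider, 2349 bp in shG9a_4 replicate 1 and 4798 bp in shG9a_4 replicate 2. The other 3 shG9a libraries had no such peak, and the shSCR libraries had 441, 0 and 0 bp in replicates 1 to 3. The median fold of these peaks was 1.43 to 2.16 in the 3 shG9a libraries and 1.61 in shSCR replicate 1.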

How the results depend on the processing

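The number of broad regions was 333 at a limit of 1500 bp and 1066 to 1764 with 1 library left out. The share with a peak in 5 or 6 shG9a libraries, 78.5%, stood beside 37.1% of all regions called in the 3 shSCR lists. It became 67.4% (34.0% of all) with peaks of −log10 q of at least 5, 81.3% (37.2%) with merging from 100 bp overlap, 89.5% (37.1%) at 1500 bp and 81.8% (45.9%) with the shSCR lists limited to the length of the shortest of them, an alternative chosen after the data were seen. With lists of equal length, which leave out shG9a_1 replicate 1, 95.6% had a peak in 4 of 5 shG9a libraries (80.1% of all). With 1 library left out it was 79.4 to 90.4% (24.9 to 52.5% of all). Where that library was an shG9a one the call needed 4 of 5 libraries, as in the highest value, without shG9a_1 replicate 1.

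With the replicate block, the log2 height difference of -0.92 had an exact permutation p of 0.111, the smallest possible; calls (-7.57 points) and covered share (-30.2 points) do not change with it. Replicate numbers were not read as pairs in the main tests. The deviations of like-numbered libraries correlated at -0.0152 to 0.111 (median 0.0523). Those of unlike-numbered libraries correlated at -0.111 to 0.0817 (median -0.0299). These ranges overlap, and they cannot decide whether like-numbered libraries were paired. Among libraries of like depth the differences in calls, height and covered share were -4.82, -0.60 and -23.6, and summit displacement was 2 bp. Leaving out 1 of the 8 libraries gave -8.64 to -3.87 points, -1.03 to -0.80 and -34.6 to -25.1 points, with height each time at the smallest possible p (0.0571 or 0.0952, exact permutation), and 0.0509 to 0.173 for peaks per region. Lists of equal length gave -2.45 points for calls and 0.287 for peaks per region (p = 0.0357, exact permutation, the smallest possible). Broad less narrow height was 0.0767 with all 9 libraries, at 54 regions, and 0.0256 with merging from 100 bp overlap; summit displacement with all 9 was -4.22 bp (exact permutation p = 0.0476). Over local background the log2 height difference was -0.71 (exact permutation p = 0.0357, the smallest possible). The cause of these changes was not tested. At regions chosen mostly through shSCR width, the p-values for height, broad less narrow height and peaks per region cannot decide a group difference. The alternative for the sequence window was not run. Heights below a caller's threshold are not listed, so weak binding at uncalled regions was not detectable here.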

Other observations

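Broad regions of the same kind lay outside chromosomes 1 to 22. Chromosome X had 22 merged regions of 1000 bp or more, all 22 called in the 3 shSCR lists, and 18 of them had a peak in 5 or 6 shG9a libraries, where 54 of all 212 chromosome X regions called in the 3 shSCR lists (25.5%) did. Unplaced contigs had 4, all called in the 3 shSCR lists and all 4 with a peak in 5 or 6 shG9a libraries, where 4 of all 9 such contig regions did.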
